A study of Mus musculus with 26 samples.

Results

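The 10 genes described here mark fibroblasts and the mesenchymal progenitors from which fibroblasts, fat cells and bone-forming cells arise: Fbln2, Pdgfra, Ly6a, Cd34, Dpp4, Pi16, Dpt, Clec3b, Cd248 and Thy1. They were taken by symbol from the deposited count table of 26264 gene symbols, which held all 10. The RNA came from mouse femoral osteoblasts, the cells that build bone matrix, grown in culture in a serum-containing medium. There were 18 RNA libraries in 6 groups of 3. YOUNG and OLD were cells of C57BL/6J mice aged 3 and 18 months. CKO-YOUNG and CKO-OLD were cells of C57BL/6J mice with the alleles Kdm2b fl/fl and Ocn-cre and the Ai14 reporter, in which the CxxC domain of Kdm2b is deleted. CON-YOUNG was its control, with Ocn-cre and Ai14 alone. The sixth group, CON-OLD-iBP, consisted of old control cells, and the labels do not expand the code iBP in its name. For the Ocn-cre groups the labels give young or old and no age in months. Ocn-cre acts in mature osteoblasts, so cells that never switched it on keep an intact Kdm2b. No old control with Ocn-cre and Ai14 other than CON-OLD-iBP was among the groups analysed here, so OLD, of mice without these transgenes, stood as the old reference. Whether replicates are separate animals or cultures is not in the labels, and the spread on which p-values rest may be technical.

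Fibroblasts hold connective tissue together by secreting collagens and the glycoproteins that organise them, and in many organs a small population with high Cd34, Ly6a, Dpp4 and Pi16 is regarded as a reserve of progenitors. Pdgfra, the alpha receptor for platelet-derived growth factor, marks much of this lineage, and in marrow Pdgfra together with Ly6a defines mesenchymal progenitors around vessels. Osteoblasts descend from such progenitors and lose most of these markers as they mature, while cultures of bone cells commonly keep fibroblast-like cells. None of the markers is exclusive: Cd34 is also carried by endothelium and blood progenitors, Thy1 by T cells and neurons, and Ly6a by blood cells.

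Several members followed library sets that cut across the groups. The share of all genes that do so was not counted, so this is not shown to be particular to the members. Total counts ran from 46.27 to 77.70 per library in units of 1e6, so that 1 count was worth 0.0127 to 0.0203 CPM, that is counts scaled to a library of 1e6. By the share of Malat1, a nuclear RNA, 8 libraries lay at 0.0296% to 0.0435% and 10 at 0.0957% to 0.223%. Of the low ones, replicates 1 and 2 of YOUNG with 1 and 3 of OLD are here called set 1, and replicates 1 and 2 of each of CON-YOUNG and CKO-YOUNG set 2. Set 3 was the rest, with 1 library of each of those groups (replicate 2 of OLD, replicate 3 of the others) and every library of the CKO-OLD and CON-OLD-iBP groups. Xist, transcribed from the inactive X chromosome, was at 391 to 481 CPM in set 1 with no Ddx3y, a Y-linked gene. CKO-YOUNG 3 had both, at 372 and 21.3 CPM. All other libraries of sets 2 and 3 held Ddx3y at 36.2 to 91.8 CPM, with Xist at most 0.404 CPM. These sex-linked genes thus also differed between set 1 and the other sets. The summed level of 18 macrophage markers was 10656 to 16152 CPM in set 1, 153 to 217 CPM in set 2 and 473 to 5940 CPM in set 3, with no marker at 0 in any library. The osteoblast genes Runx2 and Sp7, regulators of the lineage, were present in every library at 39.2 to 116 and 25.6 to 247 CPM. Bglap, the osteocalcin gene of mature osteoblasts whose promoter drives Ocn-cre, was at 0 to 9.89 CPM in CON-YOUNG and 0 to 0.306 CPM in CKO-YOUNG. The endothelial markers Pecam1 and Cdh5 reached at most 0.789 and 1.24 CPM, while Kdr, of the same list, ran from 0.331 to 14.5 CPM. The T cell gene Cd3e was at 0 in all 18 libraries. Kdm2b itself was at 16.2 to 58.2 CPM, and a whole-gene count cannot show the loss of 1 domain. Because whole cultures were sequenced, fewer cells of a type and less RNA per cell cannot be told apart.

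The deleted CxxC domain is the part of Kdm2b that recognises unmethylated CpG dinucleotides, so the CpG content of the promoters is part of the picture for these genes. RefSeq promoter windows (assembly GRCm38.p6, 250 bases before to 50 bases after a start) matched 6 of the 10 members: Fbln2, Pdgfra, Cd34, Dpp4, Pi16 and Dpt. The motif searched was CG, which reads alike on both strands. Over all 32851 windows the median was 7 CG, the quartiles were 3 and 20, and 94.6% held at least 1. The windows of the members held 3 to 10 CG, so none reached the upper quartile. Those of Dpp4, Pi16 and Dpt held 4, 3 and 4 CG. The windows of the 3 members with the most CG follow, all on the plus strand and with each CG in capitals. They are Fbln2 at chr6:91212514-91212813, Pdgfra at chr5:75152001-75152300 and Cd34 at chr1:194938571-194938870.
Fbln2: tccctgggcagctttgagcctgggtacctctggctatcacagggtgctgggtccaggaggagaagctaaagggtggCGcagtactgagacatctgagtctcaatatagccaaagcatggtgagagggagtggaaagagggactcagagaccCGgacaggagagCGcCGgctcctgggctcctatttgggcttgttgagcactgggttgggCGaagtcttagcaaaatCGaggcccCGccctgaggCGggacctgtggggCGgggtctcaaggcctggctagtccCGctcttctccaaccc
Pdgfra: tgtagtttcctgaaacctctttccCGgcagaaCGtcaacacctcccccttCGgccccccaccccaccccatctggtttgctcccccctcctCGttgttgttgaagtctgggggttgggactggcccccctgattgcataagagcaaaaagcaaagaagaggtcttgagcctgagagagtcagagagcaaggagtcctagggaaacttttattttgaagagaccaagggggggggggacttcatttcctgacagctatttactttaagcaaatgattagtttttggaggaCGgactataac
Cd34: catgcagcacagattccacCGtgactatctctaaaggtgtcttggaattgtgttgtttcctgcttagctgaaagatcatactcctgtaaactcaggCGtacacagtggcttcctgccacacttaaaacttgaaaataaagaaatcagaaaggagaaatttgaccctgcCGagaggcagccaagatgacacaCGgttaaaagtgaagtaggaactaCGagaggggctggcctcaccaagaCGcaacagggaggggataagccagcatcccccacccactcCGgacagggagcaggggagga
The Fbln2 window held 10 CG, and 43.5% of all windows held at least as many. That of Cd34 held 7 CG, a number reached by 52.1% of windows, and that of Pdgfra 5, reached by 62.0%. The ratio of observed to expected CG was 0.38 in Fbln2, 0.37 in Cd34 and 0.26 in Pdgfra, beside a median of 0.38 over all windows. These are sequence descriptions, and no binding was measured at them here.

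Across the 18 libraries the members split by abundance. Fbln2, Pdgfra, Ly6a, Cd34, Cd248 and Thy1 each exceeded 100 CPM in at least 1 library, Dpt reached 9.32 CPM, and Dpp4, Pi16 and Clec3b stayed under 1 CPM in every group mean. All 10 passed the filter on low counts. The files give no transcript lengths, so levels are compared between libraries for a gene and not between genes. The highest and lowest group means differed by 2.97-fold for Fbln2, 3.50-fold for Pdgfra, 4.12-fold for Cd248 and 4.67-fold for Ly6a, and by 32.8-fold for Dpt, 57.5-fold for Thy1 and 124-fold for Cd34. In the order of group means, neighbouring groups overlapped in their libraries in all 5 neighbour pairs for 8 members and in 4 of 5 for Cd34 and Thy1.

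**Figure D1:**
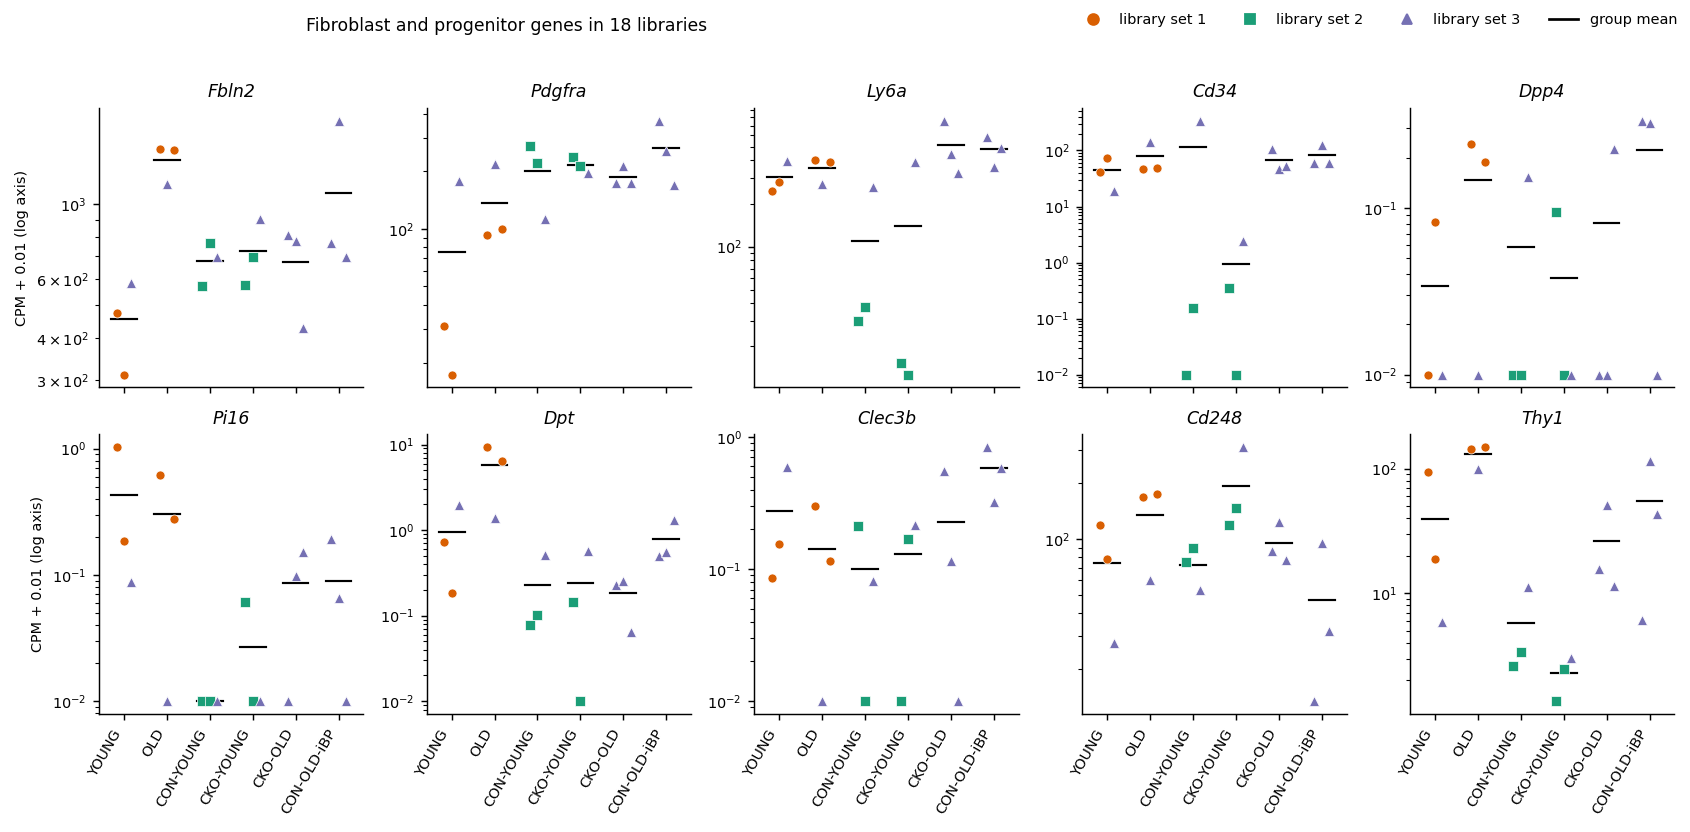
CPM of each of the 10 genes (log axis, 0.01 added so that 0 can be drawn) in the 6 groups, with 1 point per library, its shape and colour giving the library set, and a bar at the group mean. The 4 libraries of set 2 lie lowest for Ly6a and Cd34, the 4 of set 1 lie lowest for Pdgfra, and Dpp4, Pi16 and Clec3b lie near the bottom of the scale throughout.

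Among the surface receptors and antigens, Pdgfra, which relays growth factor signals for division and migration, was lowest in set 1. It stood at 31.2, 17.3 and 178 CPM in YOUNG 1, 2 and 3 and at 92.8, 217 and 99.2 CPM in OLD. CON-YOUNG held 271, 220 and 113 CPM and CKO-YOUNG 238, 213 and 195 CPM. The 4 libraries of set 1, at 17.3 to 99.2 CPM, did not overlap with the other 14, at 113 to 368 CPM. CKO-OLD, at 174, 213 and 174 CPM, and the CON-OLD-iBP libraries, at 368, 256 and 169 CPM, lay within the upper range.

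Ly6a, a lipid-anchored surface protein used to sort stem and progenitor cells, was lowest in set 2. In YOUNG it was at 245, 282 and 399 CPM and in OLD at 404, 273 and 392 CPM. CON-YOUNG read 30.3, 37.7 and 261 CPM, and CKO-YOUNG 15.4, 12.7 and 388 CPM. In both of these groups replicates 1 and 2 lay far below replicate 3, and the set 2 range of 12.7 to 37.7 CPM did not overlap with the 245 to 762 CPM of all other libraries. CKO-OLD had the highest mean, 512 ± 224 CPM (SD, n = 3), from 762, 447 and 327 CPM, and CON-OLD-iBP stood at 585, 360 and 491 CPM. Ly6a belongs to a family of similar genes, and how reads shared with them were assigned is not given in the sources used here.

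Cd34, a sialomucin of progenitor and endothelial surfaces, was close to absent from set 2. Its 4 libraries held 28 counts together, at 0, 0.147, 0.338 and 0 CPM in CON-YOUNG 1 and 2 and CKO-YOUNG 1 and 2. CON-YOUNG 3, in contrast, had the highest value of all 18 libraries, 342 CPM, and CKO-YOUNG 3 had 2.42 CPM. The mean of CON-YOUNG, 114 ± 198 CPM, therefore rested on 1 library. YOUNG stood at 41.7, 72.8 and 19.3 CPM, OLD at 46.4, 142 and 48.7 CPM, CKO-OLD at 107, 46.9 and 52.8 CPM and the CON-OLD-iBP libraries at 60.7, 124 and 61.0 CPM, 4 groups whose libraries overlapped. The sum of 13 endothelial markers stayed between 5.31 and 22.1 CPM in all libraries. The sum of 11 blood progenitor markers was 149 to 254 CPM in set 1, 19.1 to 41.9 CPM in set 2 and 32.3 to 112 CPM in set 3, so it too was low in set 2. The genes of that list did not move alike. Spi1 had means of 130 CPM in YOUNG, 159 CPM in OLD, 4.69 CPM in CON-YOUNG and 4.26 CPM in CKO-YOUNG. Kit, a defining gene of that list, was instead highest in set 2 for most libraries. It was at 7.00 and 2.10 CPM in CON-YOUNG 1 and 2 and at 5.66 and 2.08 CPM in CKO-YOUNG 1 and 2. Outside set 2 it was at 0 to 2.32 CPM, the highest being YOUNG 2. The part of such cells in the Cd34 values was not tested.

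Thy1, a lipid-anchored surface glycoprotein of fibroblasts, was highest in OLD, at 144, 99.2 and 149 CPM. YOUNG was spread over 94.1, 18.7 and 5.93 CPM and CON-OLD-iBP over 6.14, 115 and 43.5 CPM. CKO-OLD held 15.5, 51.4 and 11.4 CPM, CON-YOUNG 2.59, 3.35 and 11.3 CPM, and CKO-YOUNG 1.35, 2.47 and 2.99 CPM. Every library of the young Ocn-cre groups lay under every library of OLD and CKO-OLD.

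Cd248, the endosialin gene of stromal fibroblasts and pericytes, was highest in CKO-YOUNG, at 119, 146 and 313 CPM. YOUNG held 118, 78.3 and 27.5 CPM, OLD 168, 60.2 and 174 CPM, CON-YOUNG 75.2, 89.8 and 52.9 CPM and CKO-OLD 86.2, 124 and 77.1 CPM. CON-OLD-iBP, at 13.4, 94.9 and 31.9 CPM, had the lowest mean. Dpp4, the membrane peptidase CD26 that marks progenitors of the interstitium, gave 91 counts over all 18 libraries. It had 0 to 17 counts per library and was at 0 in 10 of them, so no difference between groups was detectable at this depth.

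Among the secreted and matrix genes, Fbln2, which encodes the matrix glycoprotein fibulin-2 of basement membranes and elastic fibres, had no library under 311 CPM. YOUNG was at 474, 311 and 583 CPM and OLD at 1461, 1150 and 1452 CPM. CON-YOUNG, at 572, 765 and 696 CPM, CKO-YOUNG, at 573, 698 and 905 CPM, and CKO-OLD, at 810, 778 and 428 CPM, had means between those of YOUNG and OLD, and each had a library within the range of YOUNG. CON-OLD-iBP read 768, 1772 and 695 CPM, 1 library above all of OLD and 2 among the middle groups. Fbln2 was the member that varied least, and no library set stood apart for it.

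Dpt, which encodes the matrix protein dermatopontin, was low outside set 1 of OLD. OLD 1 and 3 held 9.32 and 6.36 CPM and OLD 2 held 1.38 CPM. YOUNG read 0.711, 0.174 and 1.95 CPM. CON-OLD-iBP read 0.485, 0.550 and 1.30 CPM. The 9 remaining libraries of CON-YOUNG, CKO-YOUNG and CKO-OLD ran from 0 to 0.554 CPM. Pi16, a secreted peptidase inhibitor, gave 184 counts in all, of which 80 were in YOUNG 1 and 42 in OLD 1, and was at 0 in 8 libraries. It was at 0 in all 3 CON-YOUNG libraries, which allows a mean of up to 0.0176 CPM by counting error alone (3 counts over the group). Clec3b, the gene of the plasminogen-binding protein tetranectin, gave 231 counts, at most 41 in a library, with 41, 17 and 28 in CON-OLD-iBP and 0 in 4 libraries. Dpp4, Pi16 and Clec3b are therefore given as counts, without fold changes.

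**Figure D2:**
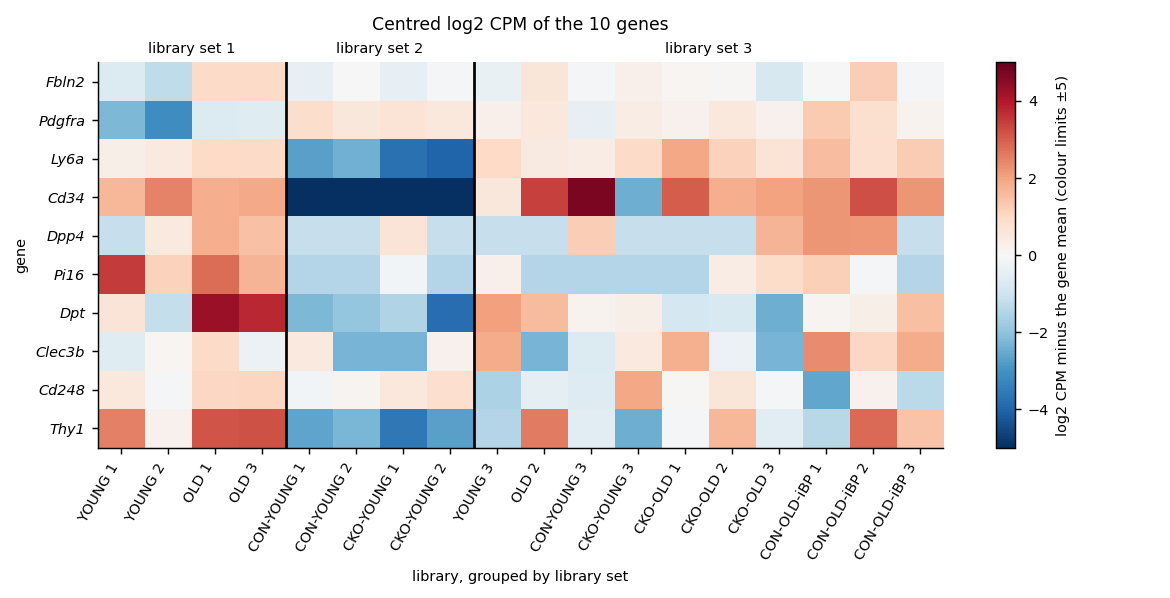
Log2 CPM of each gene minus its mean over 18 libraries (colour, limits ±5 on the log2 scale, prior count 2) with the libraries ordered by library set. Set 2 is low for Cd34, Ly6a and Thy1 and not for Pdgfra or Cd248, and OLD 1 and OLD 3 in set 1 are high for Dpt, Thy1 and Fbln2.

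The members did not share a single profile. As the root mean square difference of centred log2 CPM over 18 libraries, a measure that is small for genes that vary alike, the closest pair was Fbln2 and Pdgfra at 1.00 and the farthest Pdgfra and Cd34 at 4.58. The mean centred log2 CPM of the 10 genes was lowest in the 4 libraries of set 2, at -2.03 to -1.49, and highest in OLD 1 at 1.71, OLD 3 at 1.41 and CON-OLD-iBP 2 at 1.26. The 5 other genes closest to this mean profile were Hsd3b7 at 0.35, Cyb5a at 0.40, Mitf at 0.42, Hacd4 at 0.45 and Dpp7 at 0.45. Of the members, Fbln2 lay closest to the mean profile, at 0.93, and Cd34 farthest, at 3.23.

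The 7 group comparisons were tested with edgeR on 16566 genes, with a call at an adjusted p under 0.05. No member passed in any of the 70 tests of a member in a comparison, the smallest adjusted p was 0.085, 13 (18.6%) had an unadjusted p under 0.05, and in 12 (17.1%) the libraries of the groups did not overlap. Over all genes and the same comparisons these shares were 15.4% and 21.8%. Several comparisons share a group, so they are not independent, and each is given with its own values. Fold changes are on the log2 scale, with a standard error (SE) derived from the test statistic.

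**Figure D3:**
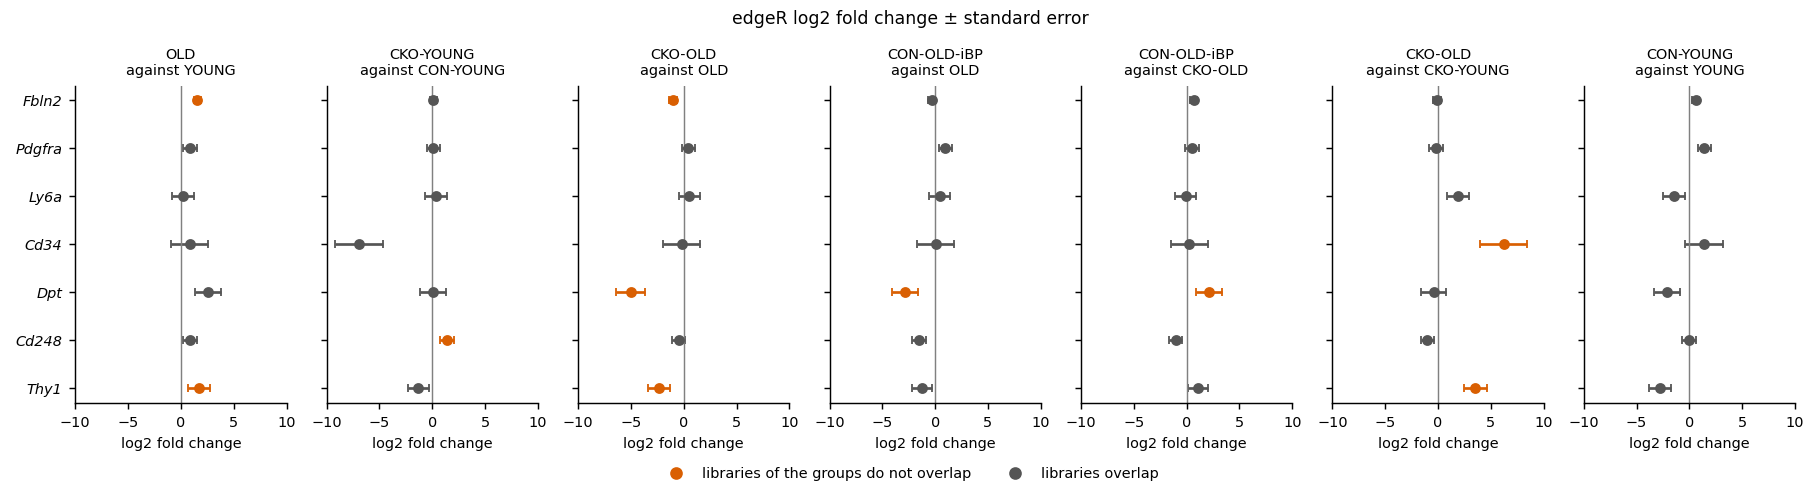
Log2 fold change with its standard error for the 7 members above 1 CPM in some group mean (rows) in each of the 7 comparisons (panels), with orange points where the libraries of the compared groups do not overlap. The points farthest from 0 are Cd34 in CKO-YOUNG against CON-YOUNG, at -6.93, and in CKO-OLD against CKO-YOUNG, at 6.20, and no point passed the test.

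OLD and YOUNG were compared to ask what differs with age in cells without the transgenes. Fbln2 was the member that separated these groups most clearly: all 3 OLD libraries, at 1354 ± 177 CPM (SD, n = 3), lay above all 3 of YOUNG, at 456 ± 137 CPM. Its log2 fold change was 1.57 (SE 0.36, unadjusted p = 0.000548), which did not pass over all genes (edgeR adjusted p = 0.756). Within set 1 the ratio was 3.71 (2 libraries against 2) and within set 3 it was 1.97 (1 against 1). DESeq2 called Fbln2 (adjusted p = 0.0134), beside 43 of 20832 genes. Thy1, at 131 ± 27.3 against 39.6 ± 47.6 CPM, also showed no overlap, with ratios of 2.59 within set 1 and 16.7 within set 3 (log2 fold change 1.72, SE 1.00, adjusted p = 1). Dpt had a log2 fold change of 2.59 (SE 1.23, adjusted p = 1) and turned to -0.49 with set 3 libraries only, as did Ly6a, from 0.21 to -0.54. Of the 10 members 0 were called, beside 0 genes, 0% of those tested, at the threshold and 554 at an unadjusted p under 0.05. The 2 members that were higher without overlap stand beside 5.73% of all genes, and the member median was 0.85 beside -0.03 over all genes. Pdgfra, Cd34 and Cd248, at 0.85, 0.83 and 0.85, and the low-count Dpp4, Pi16 and Clec3b overlapped between the groups. Fold changes were negative for 14 of 17 osteoblast genes (median -0.83), all 11 pericyte and smooth muscle markers (summing to 2017 to 2394 CPM in OLD and 1320 to 4124 CPM in YOUNG), all 18 macrophage markers (median -0.48) and 9 of 10 chondrocyte markers (median -5.12), with none of these genes called. The osteoblast genes summed to 30511 to 38708 CPM in OLD and 44723 to 54334 CPM in YOUNG. The chondrocyte markers summed to 282, 81.4 and 16457 CPM in YOUNG 1, 2 and 3 and to 708 to 1108.5 CPM in OLD. Their sum was thus higher in OLD than in YOUNG 1 and 2, and lower only than in YOUNG 3. The part of these cell types in the members' values was not tested. OLD 1 and OLD 3 differed by 6.45 times counting noise, the closest pair of all, against 18.1 to 283 in the 17 other pairs, and were kept as 2 libraries.

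CKO-YOUNG was compared with CON-YOUNG to ask what differs when the Kdm2b domain is lost in young cells. Cd248 was the member whose libraries separated, at 193 ± 105 CPM in CKO-YOUNG and 72.6 ± 18.6 CPM in CON-YOUNG. Its log2 fold change of 1.41 (SE 0.65) did not pass (adjusted p = 0.903). The ratio was 1.61 in set 2 (2 libraries against 2) and 5.90 in set 3 (1 against 1). In that set 3 pair, Xist and Ddx3y were at 372 and 21.3 CPM in CKO-YOUNG 3 and at 0.287 and 63.7 CPM in CON-YOUNG 3. The deletion and this difference cannot be told apart in that pair. Fbln2 and Pdgfra lay close between the groups, at log2 fold changes of 0.10 (SE 0.35) and 0.10 (SE 0.64). Cd34 had a log2 fold change of -6.93 (SE 2.31, adjusted p = 0.562), and this rested on 1 library: without CON-YOUNG 3 it turned to 3.68 between groups of which 5 libraries held at most 2.42 CPM. DESeq2 called Cd34 (adjusted p = 0.0382), beside 237 of 20832 genes. Ly6a, at a log2 fold change of 0.34, turned to -2.96 without CKO-YOUNG 3 and to -0.68 with the replicate number as a block. Here 0 of 10 members were called, beside 0.127% of all genes. That was 21 genes from all 18 libraries, 4 from these 2 groups alone and 0 when the replicate block was added to the 2 groups. The 1 member that was higher without overlap stands beside 5.32% of genes. The member median was 0.10 beside -0.01 over all genes. Dpt, at 0.07, Thy1, at -1.33, and the low-count Dpp4, Pi16 and Clec3b overlapped between the groups. Fold changes were positive for 15 of 18 macrophage markers (median 0.54). They were negative for 8 of 10 chondrocyte markers (median -2.81) and for 15 of 17 osteoblast genes (median -0.45). The chondrocyte markers summed to 1015, 624 and 4703 CPM in CON-YOUNG 1, 2 and 3 and to 503 to 1426 CPM in CKO-YOUNG. None of the genes of these lists was called, and their part was not tested.

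CKO-OLD was compared with OLD, which lacks Ocn-cre and Ai14. The deletion, the transgenes, the share of set 3 libraries and the Xist and Ddx3y difference of set 1 cannot be told apart. Fbln2, Dpt and Thy1 were lower in CKO-OLD with no overlap between the groups. Fbln2 was at 672 ± 212 against 1354 ± 177 CPM (log2 fold change -1.01, SE 0.35, adjusted p = 0.507), and the 3 CKO-OLD libraries were also under OLD 2, the OLD library of their own set. Dpt was at 0.173 ± 0.104 against 5.68 ± 4.01 CPM (-5.02, SE 1.38, adjusted p = 0.367), with -2.95 from set 3 libraries only. DESeq2 called Dpt (adjusted p = 0.00211), beside 193 of 20832 genes. Thy1 was at 26.1 ± 22.0 against 131 ± 27.3 CPM (-2.32, SE 1.02, adjusted p = 0.59) and was lower in 3 of 3 libraries than OLD 2. Pdgfra, at 0.45, turned to -0.90 and Cd248, at -0.49, to 0.78 with a term for library set. Cd34, at -0.20, turned to 0.53 without OLD 2 and to 0.01 without CKO-OLD 2. In all, 0 of 10 members were called, beside 0.00604% of genes. The 3 members without overlap that were lower stand beside 8.47% of genes, and the member median was -0.70 beside -0.01. Ly6a, at 0.52, and the low-count Dpp4, Pi16 and Clec3b overlapped between the groups. Fold changes were negative for all 18 macrophage markers (median -1.65) and for 8 of 11 adipogenic and marrow stroma genes (median -0.96) and positive for 9 of 10 chondrocyte markers (median 3.73), with none called. Chondrocyte markers summed to 1244, 410 and 10430 CPM in CKO-OLD 1, 2 and 3 and to 708 to 1108.5 CPM in OLD, with CKO-OLD 3 far above the rest. Macrophage markers summed to 1382 to 5940 CPM in CKO-OLD and 1414 to 11259 CPM in OLD. The part of these cell types was not tested.

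CON-OLD-iBP was compared with OLD as well. The iBP of the label, the transgenes, the share of set 3 libraries and the Xist and Ddx3y difference of set 1 cannot be told apart here. In CPM, Clec3b was higher and Dpt lower with no overlap. Clec3b gave 41, 17 and 28 counts in CON-OLD-iBP and 20, 0 and 7 in OLD, counts that overlap before scaling: the lowest CON-OLD-iBP library was at 0.312 CPM and the highest of OLD at 0.290 CPM. Dpt was at 0.778 ± 0.451 against 5.68 ± 4.01 CPM (log2 fold change -2.87, SE 1.24, adjusted p = 0.182), and was at -0.83 with set 3 libraries only. Cd248 was at 46.7 ± 42.7 against 134 ± 64.3 CPM (-1.52, SE 0.65, adjusted p = 0.179), and at -0.26 with a term for library set. Pdgfra, at 0.96 (SE 0.64), turned to -0.40 with that term. Fbln2, at -0.33, and Thy1, at -1.25, overlapped between the groups, and Cd34, at 0.05, changed sign without OLD 1, without OLD 3 and without CON-OLD-iBP 2. The call count was 0 of 10 members beside 0.0241% of genes. For no overlap, 1 member higher stands beside 14.3% and 1 lower beside 15.8% of genes. Ly6a, at 0.43, and the low-count Dpp4 and Pi16 overlapped between the groups. Fold changes were negative for all 18 macrophage markers (median -3.70) and positive for all 10 chondrocyte markers (median 4.72), with none called. Chondrocyte markers summed to 11934, 816 and 1425 CPM in CON-OLD-iBP 1, 2 and 3 and to 708 to 1108.5 CPM in OLD, with CON-OLD-iBP 1 far above the rest. Macrophage markers summed to 542 to 946 CPM in CON-OLD-iBP and 1414 to 11259 CPM in OLD. The part of these cell types was not tested.

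CON-OLD-iBP and CKO-OLD were both wholly in set 3, so this comparison is free of the set difference. The groups differ both in the Kdm2b deletion and in the iBP of the label, which cannot be told apart. Dpt was the member without overlap, at 0.485, 0.550 and 1.30 CPM against 0.221, 0.245 and 0.0536 CPM (log2 fold change 2.15, SE 1.24, adjusted p = 0.353). Fbln2 was at 1078 ± 602 against 672 ± 212 CPM (0.68, SE 0.35, adjusted p = 0.297), and at 0.09 without CON-OLD-iBP 2. Thy1, at 1.07, turned to -0.10 without CON-OLD-iBP 2, the library that was also highest for Fbln2. Without that library Cd34 turned from 0.25 to -0.21 and Ly6a from -0.10 to 0.04, and Ly6a stood at 0.31 without CKO-OLD 1. Again 0 of 10 members were called, here beside 1.29% of genes, and 1 member higher without overlap stands beside 14.5%. Pdgfra, at 0.50, Cd248, at -1.04, and the low-count Dpp4, Pi16 and Clec3b overlapped between the groups. All 17 tested osteoblast genes (median -0.76) and all 18 macrophage markers (median -1.90) had negative fold changes, with none called. The sum of macrophage markers was 542 to 946 CPM in CON-OLD-iBP and 1382 to 5940 CPM in CKO-OLD, and the part of these cell types was not tested.

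CKO-OLD was compared with CKO-YOUNG to ask how the knockout cells differ with age. Every CKO-OLD library is of set 3 and CKO-YOUNG 1 and 2 are of set 2, so age and library set cannot be told apart for them. CKO-YOUNG 3, the only CKO-YOUNG library of set 3, held both Xist and Ddx3y, at 372 and 21.3 CPM. The ratios to it below therefore rest on 1 library that also differs from CKO-OLD in Xist. Thy1 and Cd34 were higher in CKO-OLD with no overlap. Thy1 stood at 26.1 ± 22.0 against 2.27 ± 0.837 CPM (log2 fold change 3.52, SE 1.08), the closest of the 70 tests to the threshold (adjusted p = 0.085). It was called by DESeq2 (adjusted p = 0.00318) and by edgeR on these 2 groups alone (adjusted p = 0.0373), and was at 2.64 with a term for library set. Against CKO-YOUNG 3, the CKO-YOUNG library of set 3, the ratio was 8.73. DESeq2 called 2041 of 20832 genes in this comparison. Cd34 was at 68.8 ± 33.0 against 0.920 ± 1.31 CPM (6.20, SE 2.24, adjusted p = 0.121), and DESeq2 called it (adjusted p = 0.0208). Its ratio to CKO-YOUNG 3 was 28.4, and with a set term its log2 fold change was 2.06. Ly6a, at 1.88 (SE 1.05, adjusted p = 0.274), was called without CKO-YOUNG 3 (5.19, adjusted p = 0.00713). That fit leaves the 2 libraries of set 2 in CKO-YOUNG. The ratio of Ly6a in CKO-OLD to that in CKO-YOUNG 3 was 1.32. Fbln2, at -0.11, changed sign without CKO-OLD 3 or CKO-YOUNG 3, as did Dpt, at -0.42. The count was 0 of 10 members called beside 0.7% of genes. The 2 members higher without overlap stand beside 16.3% of genes, and the median was 1.06 beside -0.00. Pdgfra, at -0.21, Cd248, at -1.01, and the low-count Dpp4, Pi16 and Clec3b overlapped between the groups. Fold changes were positive for 17 of 18 macrophage (median 2.57) and 9 of 10 chondrocyte markers (median 4.44) and negative for 9 of 11 pericyte and smooth muscle markers (median -2.38), with none called. Chondrocyte markers summed to 1244, 410 and 10430 CPM in CKO-OLD 1, 2 and 3 and to 503 to 1426 CPM in CKO-YOUNG, with CKO-OLD 3 far above the rest. Macrophage markers summed to 153 to 975 CPM in CKO-YOUNG and 1382 to 5940 CPM in CKO-OLD. The part of these cell types in the members' values was not tested.

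CON-YOUNG and YOUNG were both young and without the deletion. They differed in their transgenes, in library set and, through set 1, in Xist and Ddx3y. These differences cannot be told apart for the 4 libraries of sets 1 and 2. Pi16 was the member without overlap, with 0 counts in all 3 CON-YOUNG libraries and 80, 12 and 4 in YOUNG, most of them in YOUNG 1 (edgeR adjusted p = 0.103). DESeq2 called it (adjusted p = 0.0283), beside 2096 of 20832 genes. Thy1 was at 5.73 ± 4.81 against 39.6 ± 47.6 CPM (log2 fold change -2.79, SE 1.04, adjusted p = 0.127) and was called by DESeq2 (adjusted p = 0.0212). In set 3, where 1 library stands against 1, Thy1 turned to 0.93. Pdgfra, at 1.41 (SE 0.65, adjusted p = 0.207), was called without YOUNG 3 (3.02, adjusted p = 0.00495) and turned to -0.66 in set 3. Cd34, at 1.36 (SE 1.80), was called lower without CON-YOUNG 3 (-9.26, adjusted p = 0.00492) and stood at -6.98 with the replicate block. Ly6a, at -1.49, turned to 0.47 and Cd248, at -0.04, to 1.60 with a term for library set. Cd248 also changed sign without YOUNG 1 and without CON-YOUNG 3. In this comparison 0 of 10 members were called beside 5.55% of genes, which was 919 genes from all 18 libraries, 1 from these 2 groups alone and 0 when the replicate block was added. The 1 member lower without overlap stands beside 13% of genes. Fbln2, at 0.57, Dpt, at -2.09, and the low-count Dpp4 and Clec3b overlapped between the groups. All 18 macrophage markers were called lower, with a median log2 fold change of -5.26 and a sum of 207 to 473 CPM against 3820 to 16152 CPM. The endothelial marker Kdr was called lower too, at 0.557 ± 0.388 against 9.71 ± 6.42 CPM (-4.12, edgeR adjusted p = 0.02). None of these calls held with a term for library set, where 0 genes were called. Sets 1 and 2 were parted by group label and only set 3 holds libraries of both groups, so that fit cannot tell group from set. The part of the macrophage markers in the members' values was not tested.

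Whether the knockout difference was unlike in old and young cells was tested as the difference between CKO-OLD against OLD and CKO-YOUNG against CON-YOUNG. Fbln2 had a difference of -1.11 (SE 0.50), Dpt -5.10 (SE 1.78), Cd248 -1.89 (SE 0.91) and Cd34 6.73 (SE 2.77), each with an edgeR adjusted p = 0.963. Pdgfra had 0.36 and Thy1 -0.99, and Dpp4, Pi16 and Clec3b were not called either. That of Cd34 turned to -3.88 without CON-YOUNG 3. Ly6a, at 0.18, ran from -1.51 to 3.49 when single libraries were left out. None of the 10 members was called, beside 0% of genes at the threshold and 796 at an unadjusted p under 0.05. The controls of the 2 ages differ in their transgenes, library sets and Xist and Ddx3y levels. The difference by age cannot be told apart from that of the controls.

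**Figure D4:**
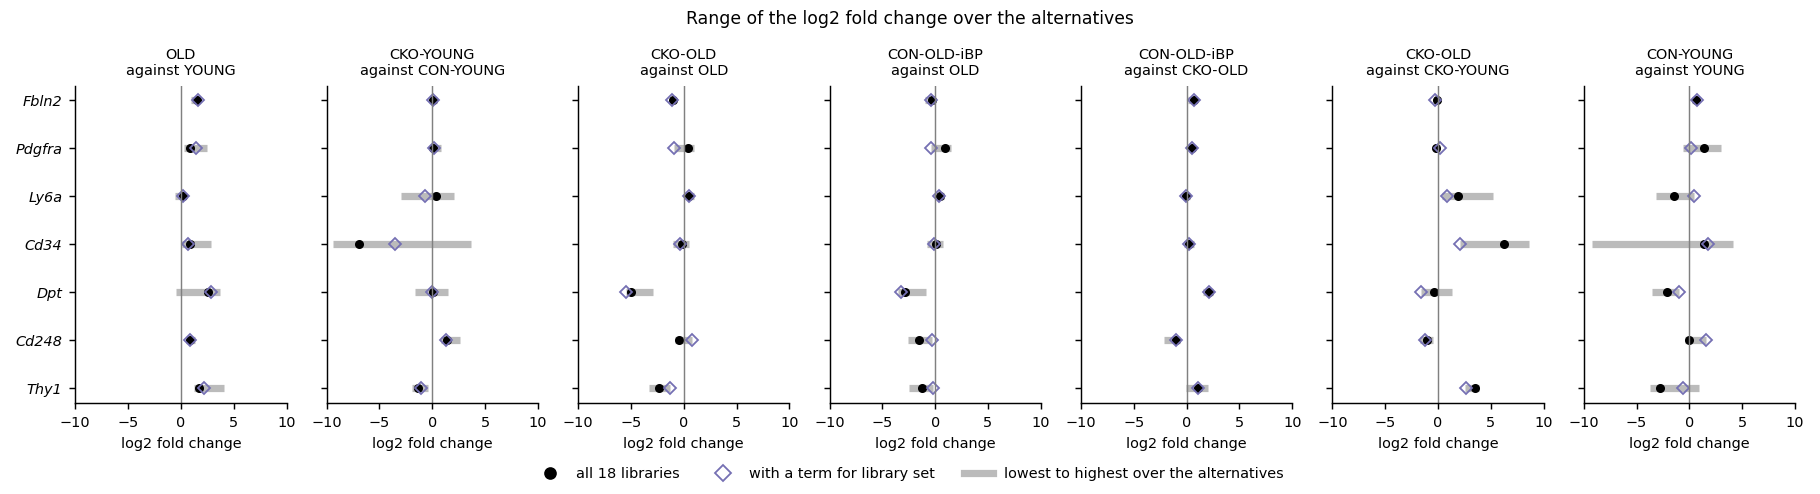
Log2 fold change of the 7 members in the 7 comparisons from all 18 libraries (black points) and with a term for library set (open diamonds), with grey bars from the lowest to the highest of 14 alternative settings (12 for Dpt in CKO-YOUNG against CON-YOUNG). The Fbln2 bar in OLD against YOUNG runs from 0.99 to 1.78, and the bars of Cd34 cross 0 in CKO-YOUNG against CON-YOUNG, from -9.36 to 3.68, and in CON-YOUNG against YOUNG, from -9.26 to 4.15.

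Wider lists were read beside the members. Of 37 other fibroblast and progenitor genes 36 were tested, and none was called in the 7 comparisons. Their median log2 fold change was 0.08 in OLD against YOUNG, beside 0.85 in the members, and -0.33 beside 0.10 in CKO-YOUNG against CON-YOUNG. It differed in sign from the members' in CKO-OLD against OLD, at 0.14 (24 of 36 positive) beside -0.70, and in CON-OLD-iBP against OLD, at 0.43 (26 of 36 positive) beside -0.14. It was 0.42 beside 0.59 in CON-OLD-iBP against CKO-OLD, -0.87 beside -0.77 in CON-YOUNG against YOUNG, and 1.03 (22 of 36 positive) beside 1.06 in CKO-OLD against CKO-YOUNG. The genes of smallest p in the latter were Ackr3, a chemokine-scavenging receptor, at 32.7 ± 6.53 against 3.63 ± 1.01 CPM (adjusted p = 0.0556), S100a4, a calcium-binding protein of fibroblasts, at 1913 ± 1128 against 42.1 ± 37.6 CPM (adjusted p = 0.0587), and Prg4, the lubricating proteoglycan of joint surfaces, at 1301 ± 441 against 16.2 ± 0.25 CPM (adjusted p = 0.0656). In OLD against YOUNG, Fbln1, a relative of Fbln2, was at 95.6 ± 43.0 against 38.2 ± 14.6 CPM (adjusted p = 1), and no gene of the 15 in the fibulin and elastic fibre list was called in any comparison. In CKO-OLD against CKO-YOUNG, Fbn1, the microfibril protein fibrillin-1, was at 212 ± 100 against 1571 ± 200 CPM (adjusted p = 0.0529).

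The ligands of Pdgfra and its sister receptor formed a list of 6 tested genes. Pdgfa, a ligand that binds the alpha receptor, was higher in CON-OLD-iBP when set against CKO-OLD, at 154 ± 32.9 against 66.4 ± 7.16 CPM (log2 fold change 1.22, adjusted p = 0.0271). It was lower in CON-YOUNG than in YOUNG, at 57.5 ± 12.1 against 104 ± 36.8 CPM (-0.86, adjusted p = 0.0477), as was Pdgfb at 0.850 ± 0.592 against 37.9 ± 28.4 CPM (-5.48, adjusted p = 0.0142). Pdgfb is also made by macrophages, whose markers moved with it in that comparison, and their part was not tested. No other gene of the list passed in the 7 comparisons. Of 18 surface and regulatory markers of mesenchymal stroma, Gli1, a hedgehog effector of stromal progenitors, was lower in CON-OLD-iBP when set against CKO-OLD (0.166 ± 0.227 against 3.73 ± 0.409 CPM, adjusted p = 0.0406). Itga6, an integrin subunit, was lower in CON-YOUNG than in YOUNG (15.8 ± 21.3 against 167 ± 49.4 CPM, adjusted p = 0.0319). Among 17 tested osteoblast genes, Bglap at 58.8 ± 21.7 against 0.153 ± 0.153 CPM (adjusted p = 0.0389) and Spp1, the osteopontin gene, at 11277 ± 835 against 1895 ± 434 CPM (adjusted p = 0.0253) rose in CKO-OLD against CKO-YOUNG, the comparison in which Thy1 and Cd34 did not overlap. Spp1 was also lower in CON-YOUNG than in YOUNG (4093 ± 2138 against 11362 ± 6572 CPM, adjusted p = 0.0459). The median log2 fold change of the macrophage markers had the same sign as that of Spp1 in both comparisons. It was 2.57 in CKO-OLD against CKO-YOUNG and -5.26 in CON-YOUNG against YOUNG, and the part of macrophages in Spp1 was not tested. In CON-YOUNG against YOUNG the calls of Pdgfa, Pdgfb, Itga6 and Spp1 did not hold in the other fits named here. By edgeR their adjusted p values were 0.234, 0.0893, 0.196 and 0.237 from the 2 groups alone, 0.191, 0.191, 0.197 and 0.134 when the replicate block was added, and 0.384, 0.305, 0.448 and 0.326 with a term for library set. With that term Bglap and Spp1 also lost their calls in CKO-OLD against CKO-YOUNG (edgeR adjusted p = 0.101 and 0.123), while Pdgfa and Gli1 in CON-OLD-iBP against CKO-OLD kept theirs (0.0051 and 0.0112). Gli1 lost its call from those 2 groups alone (0.0673). With 1 library left out, Pdgfa and Gli1 kept these calls in 1 of 6 fits each, as did Bglap and Spp1 in theirs.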

How the data were processed

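RNA was measured in 18 of the 26 samples of the series. The 8 CUT&Tag samples were not analysed here. The authors deposited whole-number read counts per gene symbol with no normalization. The submitters' processing notes name FastQC, Trim Galore, HISAT2 and mm39. For the counting program, annotation and strand setting, the sources used here give nothing, so reads of Pdgfra, Ly6a, Cd34, Pi16 and Dpt, each of which overlaps another RefSeq gene, may be shared with it.

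The members and gene lists were chosen with earlier results of these data known. All 10 members are named in every comparison. From each other list at most the 3 genes of smallest p per comparison with at least 1 CPM in the higher group are named, and 5 like genes by root mean square difference, without predicted symbols. Kdm2b, Malat1, Xist and Ddx3y, and single markers given as ranges, serve as checks.

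Genes were kept by filterByExpr (minimum count 10, total 15), which left 16566 of 20832 with a count, scaled by TMM and tested with edgeR 4.0.16 in R 4.3.3 (quasi-likelihood F test, robust, 1 coefficient per group, 12 residual degrees of freedom, two-sided, Benjamini-Hochberg over all genes tested, threshold 0.05). The script was tested on simulated data. CPM use TMM library sizes, and SE is the log2 fold change over the root of F. DESeq2 1.42.0, limma 3.58.1 (voom) and the other settings of the closing section were alternatives. Voom and the fit on set 3 libraries were chosen after seeing the data. Library sets were parted at 0.05% Malat1, and those below by group label.

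Replicate numbers come from the titles. Same-numbered deviations from the group means had correlations of 0.193, 0.237 and 0.305 between the young knockout and its control. Between CON-YOUNG and YOUNG they were 0.146, 0.245 and 0.310. By the rule that every pair exceeds 0.1, these comparisons count as paired by number. The other comparisons had a pair at or below 0.1. In YOUNG, CON-YOUNG and CKO-YOUNG alike, replicate 3 is the library of set 3. The correlations therefore cannot tell paired samples from this shared layout. Figures were drawn with matplotlib 3.10.9 in Python 3.11.15. Floors of 3 counts cover counting error only.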

Additional observations from a re-analysis of the deposited data

How the results depend on the processing

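No member was called in the 7 comparisons or in the knockout difference by age, and this held with library totals, without a filter on low counts, with the replicate block, with a term for library set and by limma-voom. DESeq2 called 1 member in OLD against YOUNG, 1 in CKO-YOUNG against CON-YOUNG, 1 in CKO-OLD against OLD, 2 in CKO-OLD against CKO-YOUNG and 2 in CON-YOUNG against YOUNG. The groups of the comparison alone gave 1 in CKO-OLD against CKO-YOUNG, and set 3 libraries gave 1 in CKO-YOUNG against CON-YOUNG, where 1 library stands against 1 and the spread comes from the other groups. Leaving out each library gave 0 to 1 in CON-YOUNG against YOUNG and in CKO-OLD against CKO-YOUNG. DESeq2 was run on 20832 genes and edgeR on 16566. Over all genes DESeq2 called 43 (edgeR 0) in OLD against YOUNG, 237 (21) in CKO-YOUNG against CON-YOUNG, 193 (1) in CKO-OLD against OLD, 2091 (4) and 1453 (213) in CON-OLD-iBP against OLD and against CKO-OLD, 2041 (116) in CKO-OLD against CKO-YOUNG, 2096 (919) in CON-YOUNG against YOUNG and 56 (0) in the difference by age. With edgeR's 18 libraries these counts ran from 0 to 919, with a set term from 0 to 2035, with the groups of the comparison alone from 0 to 736, with set 3 libraries from 0 to 688, with limma-voom from 0 to 537 and without a filter from 0 to 733. Leaving out each library gave 0 to 2924, the highest being CON-YOUNG against YOUNG without CON-YOUNG 3, 2924 against 919, and CKO-OLD against CKO-YOUNG without CKO-YOUNG 3, 2655 against 116. The cause was not tested.

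Of 56 fold changes, the settings other than leaving out a library gave 408 values of the same direction and side of the threshold, 8 newly past it and 30 of the opposite sign, and leaving out a library gave 346, 2 and 30. The 60 group means moved by less than 1 SD with library totals. The opposite signs were, with library totals, Cd34 in CON-OLD-iBP against OLD (-0.01) and Fbln2 in CKO-OLD against CKO-YOUNG (0.00). With the replicate block, they were Ly6a in CKO-YOUNG against CON-YOUNG (-0.68), Dpt in CKO-OLD against CKO-YOUNG (0.54), and Cd34 (-6.98) and Cd248 (0.15) in CON-YOUNG against YOUNG. The block changed no call of a member. Numbers did not pair the samples in the other 5 comparisons, where the block, fitted on the groups of the comparison, gave 0 called genes in OLD against YOUNG (0 from these groups without it), 0 (4) in CKO-OLD against OLD, 2 (30) in CON-OLD-iBP against OLD, 649 (679) in CON-OLD-iBP against CKO-OLD and 230 (736) in CKO-OLD against CKO-YOUNG.

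With a term for library set, they were Ly6a (-0.67) and Dpt (-0.06) in CKO-YOUNG against CON-YOUNG, Pdgfra (-0.90) and Cd248 (0.78) in CKO-OLD against OLD, Pdgfra (-0.40) and Cd34 (-0.08) in CON-OLD-iBP against OLD, Pdgfra in CKO-OLD against CKO-YOUNG (0.21), Ly6a (0.47) and Cd248 (1.60) in CON-YOUNG against YOUNG, and Pdgfra in the difference by age (-1.08). With set 3 libraries only, they were Ly6a (-0.54) and Dpt (-0.49) in OLD against YOUNG, Pdgfra (-0.19) and Cd248 (0.69) in CKO-OLD against OLD, Cd34 in CON-OLD-iBP against OLD (-0.79), Pdgfra (-0.66), Cd248 (0.95) and Thy1 (0.93) in CON-YOUNG against YOUNG, and Pdgfra in the difference by age (-1.01). With limma-voom, they were Ly6a (-0.62) and Dpt (-0.73) in CKO-YOUNG against CON-YOUNG, Dpt in CKO-OLD against CKO-YOUNG (0.71), and Cd34 (-5.78) and Cd248 (0.15) in CON-YOUNG against YOUNG.

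Leaving out each library in turn changed the sign of 16 fold changes. In CON-YOUNG against YOUNG, Cd248 ran from -0.47 to 0.46 and Cd34 from -9.26 to 1.91. In CON-OLD-iBP against OLD, Cd34 ran from -0.40 to 0.78. In CKO-OLD against OLD, Cd34 ran from -0.67 to 0.53. In CON-OLD-iBP against CKO-OLD, Ly6a ran from -0.34 to 0.31, Cd34 from -0.21 to 0.72 and Thy1 from -0.10 to 2.03. In the difference by age, Ly6a ran from -1.51 to 3.49 and Cd34 from -3.88 to 9.16. In CKO-OLD against CKO-YOUNG, Fbln2 ran from -0.27 to 0.13 and Dpt from -0.98 to 1.32. In CKO-YOUNG against CON-YOUNG, Ly6a ran from -2.96 to 2.03, Dpt from -1.66 to 1.53, Pdgfra from -0.19 to 0.38, Cd34 from -9.36 to 3.68 and Fbln2 from -0.09 to 0.25. With library totals the median of all genes moved from -0.01 to -0.12 in CON-OLD-iBP against CKO-OLD and from -0.00 to 0.11 in CKO-OLD against CKO-YOUNG, and stayed within 0.05 of 0 elsewhere. Depth limits Dpp4, Pi16 and Clec3b, whose 91, 184 and 231 counts over 18 libraries are too few for a fold change.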
